A study of Mus musculus with 22 samples.

Results

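The report describes how gene expression in the right brain hemisphere differed between male mice of the 4 cages with the lowest cage numbers (the earlier cages, replicates 1 to 4) and of the 3 cages with the highest (the later cages, replicates 5 to 7). The libraries were chosen by the cage number in their names, which gave 14 of the 22 libraries of the series, 8 from the earlier and 6 from the later cages. The 8 female libraries of the series, from both ranks and the same strain, were used only for levels. The split itself came from the measured values, because the libraries of the earlier and the later cages lay on opposite sides of the first principal component of the same counts. The contrast between the cage sets is therefore given as a description with no test. The study asked how social rank relates to gene expression in the brain. The mice of the 14 libraries were all male C57BL/6JOlaHsd mice, spelled C57B6/J OlaHsd in the labels, without any treatment named there. A tube test at 10 to 12 weeks gave their rank, which goes to the cage mate that drives the other back through the tube. From each cage 1 dominant and 1 submissive male were killed together in the morning, so that rank was balanced within both cage sets, with 4 mice of each rank in the earlier and 3 in the later cages. Each hemisphere was divided into 3 pieces and stored in RNAlater before total RNA was extracted, depleted of ribosomal RNA and made into stranded libraries for single-end sequencing. Cage number and library number rise together, and no date of dissection or extraction was given in the sources used here, so that the cage set, the order of the libraries and any such step cannot be told apart.

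Total RNA from brain holds spliced messenger RNA together with long non-coding and unspliced RNA, because the libraries are not selected for poly(A) tails. Long non-coding RNAs such as Malat1 and Kcnq1ot1 remain in the nucleus, whereas messenger RNAs of ribosomal proteins and of the respiratory chain are short, abundant and cytoplasmic. Immediate-early genes are transcribed within minutes of neuronal activity, and clock genes follow the time of day. A hemisphere is a mixture of cell types, so that fewer cells of a type and less RNA per cell cannot be told apart in any value below.

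Between 12403943 and 14379997 reads per library were counted on genes in the earlier cages (median 13859841) and between 14166495 and 15805170 in the later cages (median 15013954.5). The means of the later cages were higher by 1358580 counted reads. At least 10 counts were found for 14757.4 ± 67.5 genes (SD, n = 8) in the earlier and 14813.3 ± 67.8 genes (SD, n = 6) in the later cages, a difference of 56.0 genes. The 50 most abundant genes held 10.6% ± 0.0910 of the reads (SD, n = 8) in the earlier and 10.1% ± 0.0708 (SD, n = 6) in the later cages, a difference of -0.518 percentage points. The means of the 3 later cages all lay below those of the 4 earlier cages. All 18 pairs of libraries of the same rank and cage set differed by more than sampling noise, with a mean chi-square of 1.87 to 9.51 per gene, so that no library was counted as a copy of another.

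Dominant male 1, of the first cage, stood apart from the other 13 libraries in genes of the cerebellum. Pcp2, a gene specific to Purkinje cells, had 0 counts there, which allows up to 0.213 CPM (counts scaled to library size by TMM; the limit corresponds to 3 counts and covers counting error only), and 20.0 to 46.4 CPM in the other libraries. Car8, abundant in Purkinje cells, had 18.2 CPM in dominant male 1 and 223.7 to 436 CPM elsewhere, and Cbln1, which granule cells secrete onto Purkinje cells, had 9.43 CPM and otherwise 36.1 to 70.5 CPM. The summed level of 18 tested granule cell genes without Car8 was 818 CPM in this library and 1181 to 1888 CPM in the others, and that of 18 Purkinje cell genes 2278 CPM and 3334 to 4383 CPM. Its share in the contrast of the cage sets was measured by leaving it out, which changed the number of genes called from 4066 to 4727.

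On rlog values of the 500 most variable genes, the first component held 41.6% and the second 38.5% of the variance. The scores that chose the split lay between -2.66 and -0.231 in the earlier cages and between 1.54 and 3.53 in the later cages. Libraries of both ranks were found on either side, and the library nearest to the gap on the earlier side was dominant male 1 at -0.231, against submissive male 7 at 1.54 on the later side. The cage set held 90.7% of the variance of the first component and 2.45% of that of the second, on which dominant male 1 scored 6.35. When variance-stabilized values or log2 CPM replaced the rlog values, the order of the components turned. The cage set then held 0.892% and 0.169% of the first component and 92.8% and 94.5% of the second. The genes with the largest positive weights on the first component were Cadm4, Kcnj4, Jph3, Cldn5 and Palm, and those with the largest negative weights were 9530091C08Rik, Arc, Malat1, A330023F24Rik and Snhg11.

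**Figure D1:**
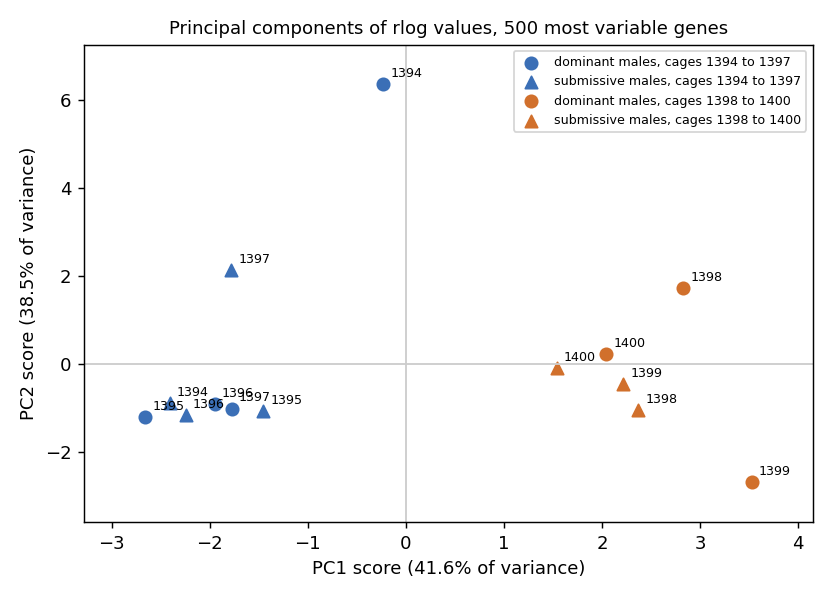
Scores of the 14 male libraries on the first (x axis) and second (y axis) principal component of rlog values, with circles for dominant and triangles for submissive males, blue for the earlier and orange for the later cages, and the cage number at each point. The earlier cages lie between -2.66 and -0.231 and the later cages between 1.54 and 3.53 on the first component, and dominant male 1 lies at 6.35 on the second.

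With rank as a covariate, edgeR's quasi-likelihood fit called 4066 of 14824 genes (27.4%) between the cage sets at an adjusted p under 0.05, 1738 (11.7%) higher and 2328 (15.7%) lower in the later cages. As the same values chose the split, a call is used here only to describe which genes differed, and all log2 differences are those of the later cages minus the earlier cages. DESeq2 called 3843 genes, 1718 higher and 2125 lower. The levels of the 8 earlier and the 6 later libraries did not overlap in 481 genes (3.24%) that were higher and 806 genes (5.44%) that were lower. Most of the differences were small. The median absolute log2 difference was 0.15 among the genes called higher and 0.24 among those called lower. Over 0.5 on the log2 scale were 13 of the higher and 248 of the lower genes, and over 1 were 0 and 21. The median over all genes tested was -0.0011.

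The direction went with the length of the gene. Genes called lower had a median of 5043 exon bases, genes called higher 2130.5 and genes not called 2872. Among the 1483 genes with the fewest exon bases, the median log2 difference was 0.087, with 304 genes higher and 65 lower, and among the 1483 with the most it was -0.15, with 28 higher and 784 lower. GC content of the longest transcript moved the other way, from a median log2 difference of -0.053 in the 1471 genes with the lowest GC content (53 higher, 355 lower) to 0.079 in the 1471 with the highest (313 higher, 80 lower). When the trend of each library on exon length was removed, 2886 genes were called, 1543 higher and 1343 lower, so that 53.5% of the calls were higher against 42.7% before. Of the 4066 calls, 2321 (57.1%) were also called in the same direction after this step, and 168 genes changed sign. With the trend on GC content removed, 4165 genes were called, 2148 higher and 2017 lower, so that 51.6% were higher. The part of length and GC content in the differences of single genes was not tested further, and counts with the length trend removed stand beside those of the gene lists below. The counts of each list are to be read against the shares of all genes, 11.7% higher and 15.7% lower. With the length trend removed these were 1543 higher and 1343 lower of 14824 genes.

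**Figure D2:**
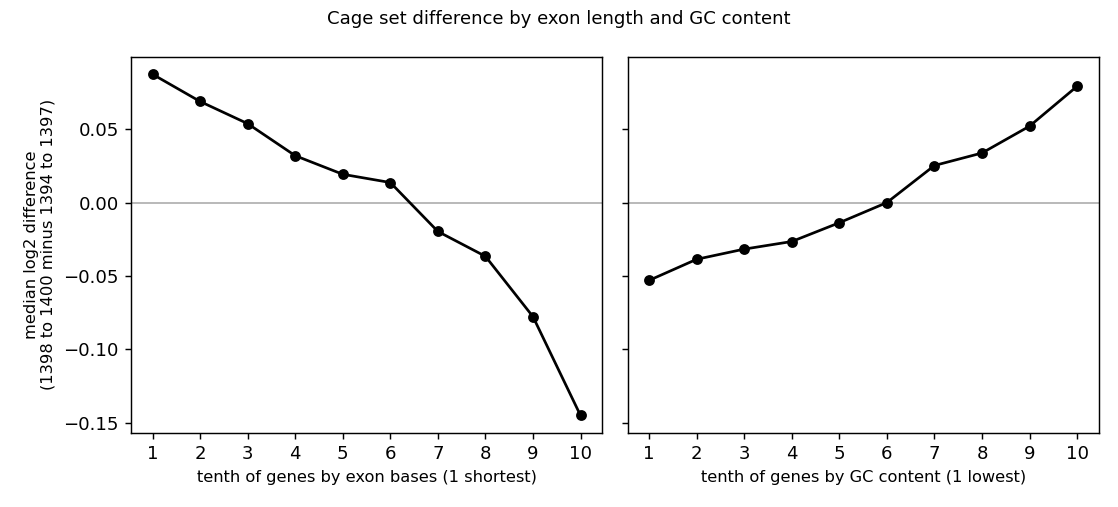
Median log2 difference between the cage sets (y axis, later minus earlier) in 10 equal groups of the 14824 genes tested ordered by exon bases (left) and of the 14702 with a value ordered by GC content (right). The median runs from 0.087 in the shortest to -0.15 in the longest genes, and from -0.053 at the lowest to 0.079 at the highest GC content.

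Of 19 nuclear long non-coding RNAs tested, 12 were called lower and 0 higher, with a median log2 difference of -0.23 against -0.0011 for all genes (-0.20, 0 higher and 8 lower with the length trend removed). Malat1 (chromosome 19, 5795690 to 5802671 in mm10), a nuclear speckle RNA and the most abundant member per length, had 15287 to 18455 CPM (median 17669.6) in the earlier cages and 8919 to 11739.7 CPM (median 10651) in the later cages. Every later library was below every earlier library, with a log2 difference of -0.73 (standard error 0.04999). Snhg11, a small nucleolar RNA host gene of neurons, had 875 to 1030.2 CPM (median 986) in the earlier cages and 514 to 682 CPM (median 618) in the later cages, again without overlap (-0.69, standard error 0.0595). Neat1, the scaffold of nuclear paraspeckles, which was named after its values were seen, had 88.2 to 110.2 CPM (median 97.8) in the earlier cages and 51.9 to 89.9 CPM (median 66.5) in the later cages, and its ranges overlapped (-0.50, -0.20 and not called with the length trend removed). Kcnq1ot1, an imprinted antisense RNA of 83437 exon bases, had 398 to 493 CPM (median 459) in the earlier cages and 259.7 to 336 CPM (median 309) in the later cages, a log2 difference of -0.57 (standard error 0.0520), without overlap. The difference was -0.016 and not called with the length trend removed. The strand setting of the counting was not given in the sources used here, so that genes sharing exon bases with a neighbour are uncertain by that share, as for 121 bases of Kcnq1ot1 that are shared, mainly with Kcnq1.

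Some of these RNAs come from imprinted domains. In the domain from Dlk1 to Mirg (chromosome 12, 109452823 to 109749457), from which long non-coding, small nucleolar and micro RNAs are made on the maternal chromosome, 33 genes were tested, of which 21 were called lower and 0 higher, with a median log2 difference of -0.55 (7 lower and 0 higher, median -0.38, with the length trend removed). Of the 19 that reached the level of the filter on low counts in all 14 libraries, 15 were called lower and 0 higher. Meg3, its first maternal RNA, had 1470.4 to 1873 CPM (median 1637) in the earlier cages and 849 to 1199 CPM (median 1049) in the later cages, with no overlap and a log2 difference of -0.69 (standard error 0.0797), or -0.47 with the length trend removed; 174 of its 12956 exon bases are shared, mainly with Mir770. Dlk1, a paternally expressed membrane protein of the same domain, had 6.89 to 9.68 CPM (median 9.05) in the earlier cages and 4.45 to 7.07 CPM (median 5.31) in the later cages, and the ranges overlapped slightly (-0.61). In the domain from Ube3a to Snrpn on chromosome 7, 6 genes were tested and 4 were called lower (0 higher, median -0.28; 3 lower and 0 higher with the length trend removed). Ipw, a paternally expressed non-coding RNA of this domain, had 393 to 479 CPM (median 440.0) in the earlier cages and 235 to 308 CPM (median 292) in the later cages, without overlap (-0.62, standard error 0.0533). By gene type, 31 of 172 long intergenic RNAs were called lower and 3 higher, against 2171 lower and 1716 higher of 14030 protein-coding genes. 9530091C08Rik had the largest difference of all genes called lower, with 17.2 to 31.3 CPM (median 29.3) in the earlier cages and 7.88 to 11.4 CPM (median 10.3) in the later cages and a log2 difference of -1.47 (standard error 0.117). Its earlier and later libraries did not overlap.

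**Figure D3:**
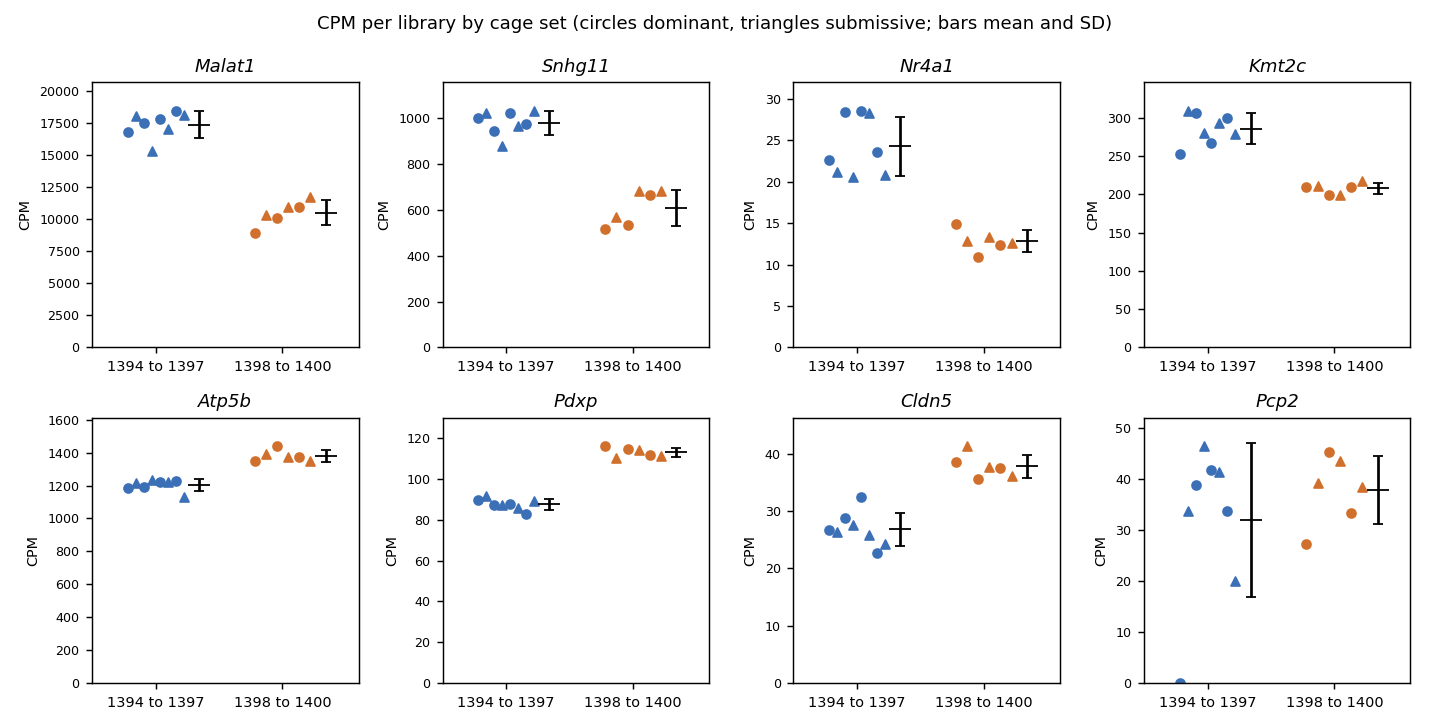
CPM (y axis) of 8 genes in each of the 14 libraries, with circles for dominant and triangles for submissive males, blue for the earlier and orange for the later cages, and the mean and SD of each set in black. Malat1, Snhg11, Nr4a1 and Kmt2c are lower and Atp5b, Pdxp and Cldn5 higher in every library of the later cages, while Pcp2 overlaps and has 0 counts in dominant male 1.

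Some transcripts hold micro RNAs. Of 1180 micro RNA loci in the annotation 55 passed the filter on low counts, 20 called lower and 2 higher, with a median of -0.35 (-0.22, 3 higher and 5 lower with the length trend removed). The filter asked for 0.705 CPM in any 6 libraries, so that loci near this level could pass through the set where they are high. The level was reached in a larger share of the earlier libraries by 23 of the loci (8 called lower) and of the later libraries by 3 (0 called higher). Among the 29 loci that reached it in all 14 libraries, 12 were called lower and 2 higher (median -0.34), against 2260 lower and 1730 higher of 13945 genes that did so. A330023F24Rik had 133 to 163 CPM (median 157) in the earlier cages and 78.6 to 99.2 CPM (median 90.8) in the later cages, a log2 difference of -0.76 (standard error 0.0574). No library overlapped, and 169 of its 5195 exon bases are shared, mainly with Mir29c. Mir124a-1hg, a host of the neuronal miR-124, had 83.8 to 114 CPM (median 102) in the earlier cages and 49.1 to 67.2 CPM (median 61.5) in the later cages, also without overlap (-0.72); 172 of its 4039 exon bases are shared, mainly with Mir3078. Mir494, a locus of the domain from Dlk1 to Mirg with 85 exon bases, lay near 1 CPM, at 0.570 to 1.29 CPM (median 0.927) in the earlier cages and 0.264 to 0.611 CPM (median 0.374) in the later cages (-1.12, ranges overlapping). It reached the filter level in 6 of 8 earlier and 0 of 6 later libraries, so that it passed through the earlier cages alone. The filter level was counted on another scaling than the CPM printed here, by which dominant male 1 (0.709 CPM) would also reach it. These libraries count the precursors and host transcripts, and the mature micro RNAs themselves were not measured. RefSeq (GRCm38.p6) places 4 mature micro RNAs inside A330023F24Rik and 2 in Mir494. They are shown 5′ to 3′ because they are what these hosts encode, with the seed in capitals. Both 3p forms of the miR-29 family share the seed AGCACCA.
miR-29b-2-5p: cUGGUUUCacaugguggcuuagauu
miR-29b-3p: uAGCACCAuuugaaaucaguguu
miR-29c-5p: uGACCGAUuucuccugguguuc
miR-29c-3p: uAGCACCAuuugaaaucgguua
miR-494-5p: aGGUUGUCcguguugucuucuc
miR-494-3p: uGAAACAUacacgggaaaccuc

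Of 26 immediate-early genes of neuronal activity, 12 were called lower and 0 higher, with a median log2 difference of -0.34 (-0.31, 0 higher and 11 lower with the length trend removed). Of all genes 15.7% were called lower and 11.7% higher (1343 and 1543 of 14824 with the length trend removed). Nr4a1 (chromosome 15, 101266846 to 101274794), an orphan nuclear receptor induced by activity, had 20.6 to 28.6 CPM (median 23.1) in the earlier cages and 10.9 to 14.9 CPM (median 12.8) in the later cages. The ranges did not overlap, with a log2 difference of -0.91 (standard error 0.0887). Dusp1, a phosphatase that ends MAP kinase signalling, had 12.6 to 19.1 CPM (median 17.3) in the earlier cages and 8.02 to 10.8 CPM (median 9.01) in the later cages, without overlap (-0.82, standard error 0.0937). The related receptor Nr4a3 had 22.0 to 27.8 CPM (median 24.1) in the earlier cages and 13.3 to 18.8 CPM (median 17.1) in the later cages (-0.57), and the ranges were separate here too. Arc, whose protein acts at synapses, had 56.3 to 132 CPM (median 95.3) in the earlier cages and 41.7 to 59.8 CPM (median 52.5) in the later cages, a log2 difference of -0.95 (standard error 0.131), with overlapping ranges. The transcription factor Fos, named after its values were seen, had 12.1 to 23.2 CPM (median 16.8) in the earlier cages and 7.39 to 10.3 CPM (median 8.80) in the later cages, a log2 difference of -1.01, and every later library was lower. Homer1, the most abundant member per length, differed by -0.10 and was not called.

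The promoters of these genes were searched for the cAMP response element TGACGTCA and for the E-box CACGTG, both of which read the same on the other strand, in the 250 bases before to 50 bases after the start given by RefSeq (GRCm38.p6). The motifs were chosen after the values were seen, and a match is a description only. The response element was found in 353 of 11116 promoters of tested genes (3.18%), in 2.98% of those called lower, in 4.30% of those called higher and in 2 of 19 immediate-early promoters, those of Btg2 and Dusp1. The E-box was found in 10.02% of all promoters, in 2 of 19 immediate-early promoters and in 5 of 18 promoters of clock genes. The promoter of Dusp1 (chr17:26508423-26508722, minus strand) is shown because it holds both, with the response element and then the E-box in capitals, and that of Per1 (chr11:69098699-69098998, plus strand) because Per1 is a target of clock proteins, with its E-box in capitals.
Dusp1: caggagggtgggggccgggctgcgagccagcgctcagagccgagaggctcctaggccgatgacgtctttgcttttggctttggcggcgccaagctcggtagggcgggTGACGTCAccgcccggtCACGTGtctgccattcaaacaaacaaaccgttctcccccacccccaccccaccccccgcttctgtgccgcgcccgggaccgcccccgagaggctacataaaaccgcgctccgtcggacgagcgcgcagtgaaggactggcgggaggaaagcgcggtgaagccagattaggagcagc
Per1: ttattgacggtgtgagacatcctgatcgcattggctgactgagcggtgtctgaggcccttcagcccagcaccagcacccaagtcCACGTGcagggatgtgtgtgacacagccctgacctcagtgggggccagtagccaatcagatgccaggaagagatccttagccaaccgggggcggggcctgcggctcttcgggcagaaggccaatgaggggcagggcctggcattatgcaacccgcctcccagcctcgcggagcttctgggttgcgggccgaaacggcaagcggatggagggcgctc

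Of 21 clock genes, 7 were called lower and 0 higher, with a median of -0.054 (-0.023, 1 higher and 4 lower with the length trend removed). With the GC trend removed 4 were lower and 0 higher. The period genes code for repressors of the clock. Per3 had 47.8 to 59.1 CPM (median 54.1) in the earlier cages and 35.2 to 43.2 CPM (median 41.9) in the later cages, without overlap (-0.42, standard error 0.0522). Per1 had 27.2 to 38.0 CPM (median 32.3) in the earlier cages and 19.5 to 29.9 CPM (median 24.03) in the later cages (-0.42) and Per2 18.8 to 30.8 CPM (median 23.9) in the earlier cages and 15.9 to 19.3 CPM (median 18.6) in the later cages (-0.49), both with overlapping ranges. The repressor Bhlhe41 had 31.2 to 37.5 CPM (median 35.1) in the earlier cages and 27.2 to 31.1 CPM (median 28.3) in the later cages (-0.25, -0.16 with the length trend removed), with separate ranges. Tef, an output factor of the clock and the most abundant member per length, differed by 0.059 and was called higher (0.11) with the length trend removed and not before. Per1 is at the same time induced by glucocorticoids. Of 19 genes of that list, 3 were called higher and 3 lower (median -0.035, or 2 and 3 with the length trend removed). These counts stand against 11.7% higher and 15.7% lower of all genes. Among the 3 members called higher were Klf9 (0.12) and the metal-binding Mt1 (0.14, not called at 0.062 with the length trend removed), both with overlapping ranges. The other 3 called members went the other way. The hour of sacrifice of each cage was not given in the sources used here.

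Among 26 chromatin regulators 14 were called lower and 2 higher (median -0.20), but with the length trend removed the counts were 5 and 5 (median -0.062). With the GC trend removed 14 were lower and 2 higher. The list has a median of 8182 exon bases against 2986 for all genes. The histone methyltransferase gene Kmt2c (16820 exon bases) had 252 to 309 CPM (median 287) in the earlier cages and 199.6 to 218 CPM (median 209) in the later cages, without overlap (-0.46, and -0.19 with the length trend removed). Its relative Kmt2e had 119.6 to 147 CPM (median 135) in the earlier cages and 89.7 to 106 CPM (median 101) in the later cages (-0.43), with separate ranges, and 874 of its 7258 exon bases are shared, mainly with Srpk2. Ep300, a histone acetyltransferase, had 79.3 to 87.1 CPM (median 81.8) in the earlier cages and 51.6 to 69.3 CPM (median 67.6) in the later cages (-0.35, -0.20 with the trend removed). The ranges of Ep300 were separate. Chd3, a remodeller of nucleosomes and the most abundant member per length, was among the 2 called higher (0.14, 0.26 with the trend removed), with overlapping ranges. Of 18 genes for proteins that write, erase or read N6-methyladenosine, 8 were called lower and 1 higher (median -0.087, or 7 and 1 with the length trend removed). With the GC trend removed 5 were lower and 1 higher (median -0.032). The methyltransferase gene Mettl3 had 23.995 to 32.2 CPM (median 28.3) in the earlier cages and 21.9 to 25.4 CPM (median 23.6) in the later cages (-0.28), with an overlap of the ranges and 252 of its 2020 exon bases shared, mainly with Tox4. The reader Hnrnpa2b1 had 191 to 205 CPM (median 199) in the earlier cages and 165 to 188 CPM (median 173) in the later cages (-0.20) and did not overlap. Of 347 zinc finger protein genes 67 were called lower and 12 higher (median -0.071), against 15.7% lower and 11.7% higher of all genes. With the length trend removed 35 were lower and 17 higher, against 1343 and 1543 of all 14824 genes. With the GC trend removed 44 were lower and 18 higher, against 2017 and 2148 of all genes.

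Among the 12 genes with the smallest p that were lower, several have very long transcripts. Ttn, the muscle protein titin with 104320 exon bases, had 29.4 to 35.6 CPM (median 32.4) in the earlier cages and 17.7 to 22.2 CPM (median 19.8) in the later cages, without overlap (-0.71), but with the length trend removed the difference was -0.13 and not called. Macf1, a linker of microtubules and actin with 23495 exon bases, had 1734 to 1881 CPM (median 1860.3) in the earlier cages and 1379 to 1500.3 CPM (median 1478) in the later cages (-0.33, and -0.00032 and not called with the trend removed). Mdn1, needed for assembly of large ribosomal subunits, had 253 to 270.2 CPM (median 262) in the earlier cages and 173 to 200.04 CPM (median 189) in the later cages (-0.48), which was -0.20 and still called. Others of the 12 kept most of their difference. Leng8 had 95.2 to 110.3 CPM (median 105) in the earlier cages and 60.4 to 75.1 CPM (median 69.7) in the later cages (-0.61, -0.55 with the trend removed), and the RNA-binding Tial1 had 116 to 135 CPM (median 128) in the earlier cages and 87.9 to 100.5 CPM (median 95.1) in the later cages (-0.44, -0.40). In all 5 genes the later libraries lay below the earlier ones.

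Of 25 voltage-gated channel genes, 14 were called lower and 2 higher (median -0.12), but 3 and 3 with the length trend removed (median 0.0022). With the GC trend removed 10 were lower and 1 higher. The calcium channel gene Cacna1e had 365 to 443 CPM (median 395) in the earlier cages and 232 to 345 CPM (median 319) in the later cages (-0.38). Its ranges did not overlap, and it was not called at -0.17 with the length trend removed. Cacna1d had 58.6 to 72.1 CPM (median 66.3) in the earlier cages and 43.7 to 53.8 CPM (median 49.9) in the later cages (-0.42), also separate, and kept its call at -0.26; 526 of its 9355 exon bases are shared, mainly with Chdh. Among 22 glutamate receptor genes 5 were called lower and 0 higher (median -0.11), against 15.7% lower and 11.7% higher of all genes. With the trend removed 2 of these receptor genes were lower and 0 higher, against 1343 and 1543 of all 14824. Gria2, an AMPA receptor subunit and the most abundant of them per length, had 1143 to 1322 CPM (median 1268) in the earlier cages and 1089 to 1198 CPM (median 1162) in the later cages (-0.12), and its difference reversed to 0.015 with the length trend removed and was -0.043 and not called with the GC trend removed. Its ranges overlapped. Of 26 scaffold genes of the synapse 6 were called lower and 1 higher (median -0.067; 2 and 4 with the trend removed), among them the neurexin Nrxn3 (-0.22, ranges separate; -0.056 and not called with the trend removed).

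Protocadherins are adhesion proteins of neurons, of which the clustered genes give each cell its own combination. Of 66 tested, 28 were called lower and 0 higher (median -0.20, or 17 and 3 with the length trend removed). The shares of all genes were 15.7% lower and 11.7% higher (1343 and 1543 of 14824 with the length trend removed). In the cluster on chromosome 18 from Pcdha1 to Pcdhgc5, 26 of 54 tested protocadherin genes were called lower and 0 higher (median -0.22). Pcdhgb8 had 4.40 to 7.19 CPM (median 5.09) in the earlier cages and 2.70 to 4.28 CPM (median 2.98) in the later cages, without overlap (-0.77), and Pcdhgb5 8.51 to 11.3 CPM (median 9.83) in the earlier cages and 5.42 to 7.69 CPM (median 6.09) in the later cages (-0.65), separate as well. Of the 54 genes, 33 share exon bases with other genes, such as 2118 of the 4617 exon bases of Pcdhgb8, so that the values of these members are uncertain. The non-clustered Pcdh9, the most abundant per length, differed by -0.036 and was not called.

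**Figure D4:**
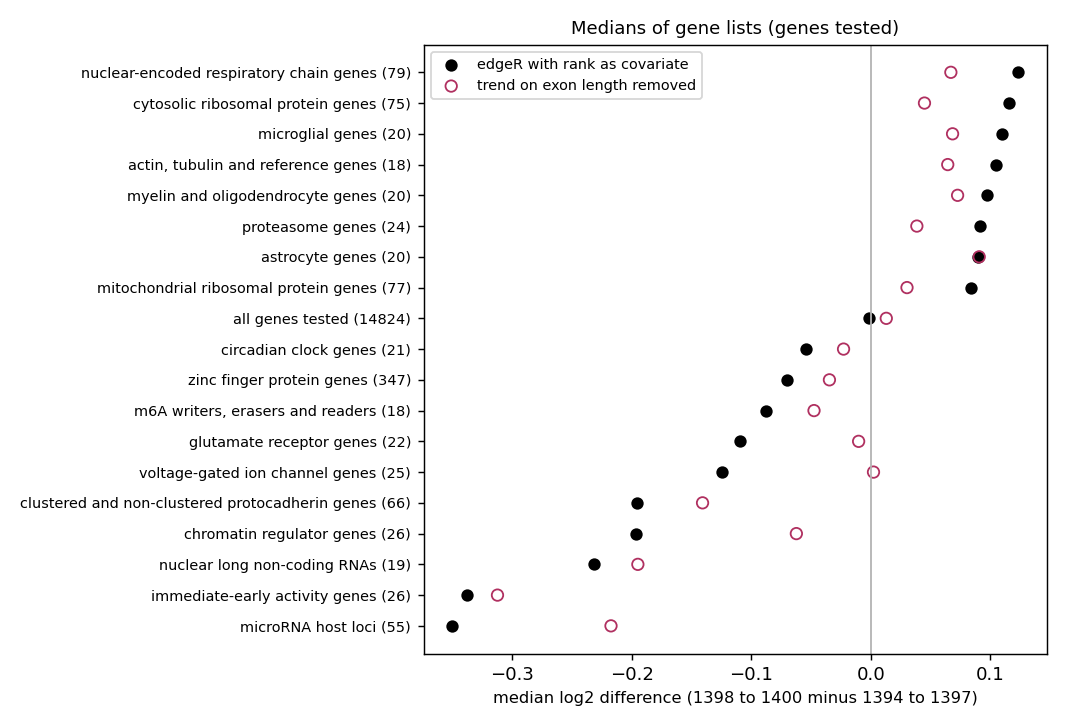
Median log2 difference between the cage sets (x axis, later minus earlier) of 18 gene lists and of all genes tested (y axis, with the number of genes tested), from the fit with rank as a covariate (black) and with the trend of each library on exon length removed (open red). Micro RNA loci lie at -0.35, immediate-early genes at -0.34 and respiratory chain genes at 0.12.

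Of 79 nuclear-encoded respiratory chain genes, 61 were called higher and 0 lower, with a median of 0.12; with the length trend removed 17 were called higher and 0 lower (median 0.067), and the list has a median of 724 exon bases. Atp5b (chromosome 10, 128083307 to 128090388), the catalytic subunit of ATP synthase, had 1129 to 1233 CPM (median 1219.6) in the earlier cages and 1348 to 1439.9 CPM (median 1374) in the later cages, and all later libraries were above the earlier ones (0.20, standard error 0.0252). Its partner subunit Atp5a1 had 893 to 986 CPM (median 975) in the earlier cages and 1095 to 1216 CPM (median 1139) in the later cages (0.26), with no overlap. Uqcrc1, a core protein of complex III, had 217 to 240.2 CPM (median 226) in the earlier cages and 249 to 272 CPM (median 261) in the later cages (0.20), also separate. Of 75 cytosolic ribosomal protein genes 48 were called higher and 0 lower (median 0.12), but 4 higher and 0 lower with the length trend removed (median 0.045). Of 77 mitochondrial ribosomal protein genes 15 were called higher and 0 lower (median 0.084, or 2 higher and 1 lower with the length trend removed). Of 24 proteasome genes 10 were called higher and 0 lower (median 0.091, or 2 and 0 with the length trend removed). With the GC trend removed instead, 59 respiratory chain and 48 cytosolic ribosomal protein genes were called higher and 0 lower. The counts were then 19 and 0 for mitochondrial ribosomal protein genes and 16 and 0 for proteasome genes.

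Genes often used as references were not level between the sets. Of 18 actin, tubulin and reference genes 12 were called higher and 1 lower (median 0.10; 6 and 1 with the length trend removed). Actb, cytoplasmic actin, had 1369 to 1523 CPM (median 1408) in the earlier cages and 1560.0 to 1631 CPM (median 1595) in the later cages, without overlap (0.17). The tubulin Tuba1a had 429 to 503 CPM (median 484) in the earlier cages and 527 to 581 CPM (median 557) in the later cages (0.22), separate too. Gapdh of glycolysis, named after its values were seen, had 362 to 412 CPM (median 389) in the earlier cages and 395 to 424 CPM (median 409) in the later cages (0.080), with overlap, and was not called with the length trend (0.032) or the GC trend removed (0.080). Of 47 clustered histone genes, whose messages mostly lack poly(A) tails, 8 were called higher and 1 lower (median 0.14; 4 and 1 with the length trend removed). The linker histone Hist1h1c had 36.3 to 45.8 CPM (median 40.6) in the earlier cages and 47.8 to 59.0 CPM (median 53.5) in the later cages (0.39), with every later library above.

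Pdxp, a phosphatase of vitamin B6 phosphate, had 82.8 to 91.6 CPM (median 87.5) in the earlier cages and 110.3 to 116 CPM (median 113) in the later cages, without overlap (0.37, standard error 0.0287), and was among the 12 higher genes with the smallest p. Sult4a1, a brain sulfotransferase, had 250.5 to 278 CPM (median 261) in the earlier cages and 329.9 to 344 CPM (median 336) in the later cages (0.36), and Cadm4, an adhesion molecule, had 128 to 148 CPM (median 143) in the earlier cages and 184 to 195 CPM (median 189.9) in the later cages (0.42). In both, the sets were separate. Jph3, which ties the endoplasmic reticulum to the plasma membrane, had 139.5 to 162 CPM (median 146) in the earlier cages and 189 to 201 CPM (median 194) in the later cages (0.39), and Prkar1b, a regulatory subunit of protein kinase A, had 399.7 to 469 CPM (median 421) in the earlier cages and 529.9 to 552 CPM (median 546) in the later cages (0.35). Kcnab2, an auxiliary subunit of potassium channels, had 242 to 259 CPM (median 247) in the earlier cages and 291 to 309 CPM (median 296) in the later cages (0.26). The inward rectifier Kcnj4, named for its weight on the first component, had 60.2 to 76.5 CPM (median 68.4) in the earlier cages and 84.5 to 99.6 CPM (median 93.2) in the later cages (0.43). These 4 genes had no overlap either. With the length trend removed the 7 genes were still called, at 0.29 for Kcnab2 to 0.42 for Jph3. With the GC trend removed they were also called, at 0.22 for Kcnab2 to 0.38 for Kcnj4. Pdxp was then at 0.29 and Jph3 at 0.33. The gene with the largest difference among those called higher was Cited4, a transcriptional co-activator near 1 to 3 CPM, with 0.641 to 1.89 CPM (median 1.27) in the earlier cages and 1.51 to 2.65 CPM (median 2.08) in the later cages (0.76), and its ranges overlapped.

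Of 20 astrocyte genes 7 were called higher and 3 lower (median 0.090; 7 and 1 with the length trend removed), and the summed level was 11883 to 12615 CPM in the earlier cages and 11813 to 12636 CPM in the later cages. Apoe, a lipid carrier and their most abundant member per length, had 1029 to 1183 CPM (median 1099) in the earlier cages and 1183 to 1276 CPM (median 1225) in the later cages (0.15, and 0.093 with the GC trend removed), with separate ranges that nearly met. The astrocyte transcription factor Sox9 had 13.5 to 21.6 CPM (median 18.3) in the earlier cages and 11.7 to 14.9 CPM (median 13.5) in the later cages (-0.46), with overlap. The glutamate transporter Slc1a2 had 3041 to 3703 CPM (median 3372) in the earlier cages and 2642 to 3065 CPM (median 2853) in the later cages (-0.23; -0.014 and not called with the length trend removed), also with overlap. Of 20 myelin genes 6 were called higher and 2 lower (median 0.10, 5 and 2 with the trend removed; summed level 7465 to 8367 CPM in the earlier cages and 7916 to 9075 CPM in the later cages). Cnp, a myelin enzyme, differed by 0.13 with separate ranges, and the myelin transcription factor Myrf by -0.47 with overlap. Of 10 genes of oligodendrocyte precursors 4 were called lower and 1 higher (median -0.11, 3 and 1 with the trend removed; summed level 648 to 682 CPM in the earlier cages and 591 to 653 CPM in the later cages). Gpr17, a receptor of differentiating precursors, had 47.1 to 51.9 CPM (median 49.2) in the earlier cages and 36.8 to 42.0 CPM (median 37.8) in the later cages, without overlap (-0.36), and 188 of its 5193 exon bases are shared, mainly with Lims2.

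Of 20 microglial genes 4 were called higher and 1 lower (median 0.11; 0 and 1 with the length trend removed), among them the complement gene C1qb (0.14; 0.073 with the length trend and 0.10 with the GC trend removed, and not called with either) higher and the transcription factor Sall1 (-0.34) lower, each with overlap. Of 20 endothelial genes 1 was called higher and 0 lower (median 0.014; 2 and 0 with the length trend removed). It was Cldn5, the tight junction protein of the blood-brain barrier, with 22.7 to 32.4 CPM (median 26.5) in the earlier cages and 35.6 to 41.3 CPM (median 37.5) in the later cages. The ranges of Cldn5 did not overlap, with a log2 difference of 0.49 (standard error 0.0615). Of 12 genes of pericytes and smooth muscle 4 were called higher and 4 lower (median 0.051; 3 and 2 with the trend removed), such as the smooth muscle actin Acta2 (0.33) and the receptor Notch3 (-0.44), both overlapping. The share of these cell types in the other differences was not tested.

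The lists of brain regions are to be read against 11.7% higher and 15.7% lower of all genes (1543 and 1343 of 14824 with the length trend removed). Of 20 striatal genes 5 were called higher and 1 lower (median 0.10, or 3 and 0 with the length trend removed). Ppp1r1b, a phosphatase inhibitor downstream of dopamine receptors, had 87.2 to 99.3 CPM (median 94.9) in the earlier cages and 104 to 118 CPM (median 110.4) in the later cages (0.23), without overlap; 164 of its 1666 exon bases are shared, mainly with 1700003D09Rik. Of 20 hippocampal genes 5 were called higher and 0 lower (median 0.037; 3 and 0 with the trend removed), among them Fibcd1 of the CA field (0.29, separate ranges) and Dkk3 (0.23, overlapping). Cortical layer genes had 2 higher and 4 lower of 22 (median -0.057, or 2 and 1 with the trend removed, median 0.032). Their most abundant member per length, the vesicular glutamate transporter Slc17a7, went against this median and the 4 members called lower. Slc17a7 had 389 to 484 CPM (median 404) in the earlier cages and 464 to 518 CPM (median 511) in the later cages (0.27), with overlap. Interneuron genes had 2 higher and 3 lower of 21 (median 0.049; 1 and 0 with the trend removed), and thalamic genes 2 and 3 of 17 (median -0.065; 3 and 1 with the trend removed, median 0.047). In olfactory bulb genes 1 and 0 of 13 were called (median 0.0054; 1 and 0 with the trend removed), in hypothalamic peptide genes 1 and 1 of 14 (median 0.039; 0 and 1 with the trend removed, median -0.035), and in pituitary genes 1 and 1 of 4 (median -0.19; 1 and 1 with the trend removed). Of 13 serotonergic and dopaminergic and 11 brainstem genes 0 were called by edgeR, also with the trend removed (medians 0.047 and -0.065).

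In the cerebellum, 0 of 19 granule cell genes were called higher and 2 lower (median 0.011, or 0 and 1 with the length trend removed). Among 18 Purkinje cell genes 1 was called higher and 1 lower (median 0.13, or 0 and 0 with the trend removed). Car8 is counted in both lists. The levels of Pcp2, with 0 to 46.4 CPM (median 36.3) in the earlier cages and 27.2 to 45.4 CPM (median 38.8) in the later cages, overlapped and were not called (0.25, standard error 0.337; 0.050 without dominant male 1), and 188 of its 625 exon bases are shared, mainly with Pet100. Homer3, Atp2a3, Ppp1r17 and Cbln1 were not called either, with log2 differences of 0.32, 0.20, 0.15 and 0.29, or 0.17, 0.040, -0.038 and 0.14 without dominant male 1, and 874 of the 2445 exon bases of Homer3 are shared, mainly with Ddx49. The calcium pump gene Atp2a3 had 5.82 to 47.7 CPM (median 42.5) in the earlier cages and 31.7 to 47.9 CPM (median 45.9) in the later cages. Choroid plexus genes had 1 called higher and 0 lower of 18 (median 0.10; 0 and 0 with the trend removed). The call was Ttr, the thyroxine carrier of the choroid plexus, with 406 to 788 CPM (median 552) in the earlier cages and 578 to 968 CPM (median 728) in the later cages (0.31), which overlapped and was not called with the length trend removed (0.25). Of 17 ependymal cilia genes 0 were called higher and 2 lower (median -0.028; 0 and 0 with the trend removed), of 16 meningeal genes 2 and 0 (median 0.068; 0 and 0 with the trend removed), and of 4 tested red cell genes 1 and 1 (median 0.068; 1 and 1 with the trend removed).

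Of 19 heat shock and cold-inducible genes 2 were called higher and 1 lower (median 0.033; 3 and 2 with the length trend removed), of 15 genes of the unfolded protein response 1 and 0 (median 0.041; 0 and 0 with the trend removed), of 23 interferon-stimulated genes 0 and 1 (median -0.050; 1 and 0 with the trend removed), and of 21 cholesterol synthesis genes 4 and 0 (median 0.021; 3 and 0 with the trend removed). Small nucleolar and Cajal body RNAs had 3 higher and 4 lower of 52 (median -0.054; 5 and 1 with the trend removed, median 0.042). Of the 4 genes of the Y chromosome 3 were called lower and 0 higher (3 and 0 with the trend removed).

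The cage sets were also compared within each rank, in 2 fits that share no library. Among dominant males (4 against 3) 864 of 14870 genes (5.81%) were called, 248 higher and 616 lower, and among submissive males (4 against 3) 1887 of 14921 (12.6%), 594 higher and 1293 lower. Of these, 663 genes were called in both ranks, 76.7% of the dominant and 35.1% of the submissive calls, and all 663 had the same direction in both. Libraries of both ranks took part in the choice of the split, so that the shared direction is a description as well.

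Rank and its interaction with the cage set were not used for the split and were tested. In edgeR's quasi-likelihood test, 0 of 14824 genes (0%) had a rank effect that differed between the cage sets at an adjusted p under 0.05, while 287 genes (1.94%) had an unadjusted p under 0.05. Where no gene differs, a share of about 0.05 would have such a p. DESeq2 called 0 as well, with 136 genes at an unadjusted p under 0.05. Within the earlier cages edgeR called 0 genes (0%) between dominant and submissive males, with 302 (2.04%) at an unadjusted p under 0.05 (DESeq2 0 and 131), and within the later cages it called 0 (0%), with 255 (1.72%) (DESeq2 0 and 113). The gene with the smallest p within the later cages was Avpr1a, the vasopressin V1a receptor. It had 1.56, 1.11 and 1.06 CPM in the 3 dominant and 0.468, 0.460 and 0.379 CPM in the 3 submissive males of the later cages, and was higher in the dominant male in 3 of 3 cages. In the earlier cages the levels were 0.730 to 1.35 CPM in dominant and 0.783 to 1.18 CPM in submissive males. The log2 difference between the ranks was 1.496 (standard error 0.310) within the later cages and differed between the sets by 1.43 (standard error 0.394), with an edgeR adjusted p of 1.00 for both. Adgrd1, an adhesion receptor, had 2.24 to 2.71 CPM in dominant and 3.72 to 3.94 CPM in submissive males of the later cages (-0.63, standard error 0.147, edgeR adjusted p = 1.00). Wash1, of the complex that builds actin on endosomes, had 24.1 to 27.4 CPM in dominant and 21.3 to 22.3 CPM in submissive males of the earlier cages, which was higher in 4 of 4 dominant males (0.24, standard error 0.0616, edgeR adjusted p = 1.00).

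Cage number inside the sets was tested next, because library order rises with it. By edgeR 0 of 14824 genes (0%) had a trend over cage number, with 378 (2.55%) at an unadjusted p under 0.05, and DESeq2 called 0 (187 unadjusted). A share of about 0.05 would have such a p where no gene has a trend. The strongest upward trend was in 4931406H21Rik, with cage means of 1.39, 2.42, 2.56 and 2.92 CPM from the first to the last of the earlier cages and of 0.773, 1.08 and 1.41 CPM from the first to the last of the later cages. The slope was 0.33 on the log2 scale per cage number (standard error 0.0837, edgeR adjusted p = 1.00), and between the sets the level was lower in the later cages (-1.07). A downward trend had a smaller p, that of Cracr2b, with a slope of -0.388 (standard error 0.0954). Its cage means were 1.35, 1.09, 0.937 and 0.675 CPM in the earlier and 1.72, 1.48 and 0.776 CPM in the later cages. Cracr2b is not among the genes followed in the closing section. Cage means of Malat1 were 17448, 16392, 17418 and 18270.1 CPM in the same order in the earlier cages and 9637, 10517 and 11349.5 CPM in the later cages.

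The 8 female libraries of the series, which were not used for the split, have another prefix in their column headers than the males, and sex cannot be told apart from any other difference between the 2 files. On a common scaling of all 22 libraries, the female median was nearer to the later cages than to the earlier cages for 1272 of the 1738 genes called higher (73.2%) and for 1944 of the 2328 called lower (83.5%), against 6197 of the 10758 not called (57.6%) and 63.5% of all genes tested. Genes not called differed less between the sets (median absolute log2 0.072, against 0.15 and 0.24 for those called higher and lower). The shares are therefore not directly comparable, and they were not computed with the length or GC trend removed. Malat1 had medians of 17691 CPM in the earlier cages, 10710.3 in the later cages and 10560.3 in females, and Kmt2c of 287, 211 and 181 CPM. Atp5b had 1222, 1382 and 1459 CPM. For Malat1, Kmt2c and Atp5b the females were thus at or beyond the level of the later cages. Nr4a1 lay between the sets in females, with medians of 23.1 CPM in the earlier and 12.8 in the later cages and 19.1 in females. Cldn5 was nearer to the earlier cages, with 26.5, 37.7 and 28.7 CPM.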

How the data were processed

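Total RNA of the right brain hemisphere was measured in 14 male libraries of 7 cages, named by their cage numbers: 1394, 1395, 1396 and 1397 (the earlier cages, replicates 1 to 4) and 1398, 1399 and 1400 (the later cages, replicates 5 to 7). The authors prepared libraries with the Illumina TruSeq stranded total RNA kit with RiboZero beads and sequenced them single-end on a NextSeq 500. Before deposition the authors ran FastQC 0.11.8, trimming (cutadapt 1.15, then bbduk) and alignment by STAR 2.6.0a against mm10. The deposited values are raw counts per gene from featureCounts 1.6.2. The other column used, per the file headers, is the number of exon bases of each gene. Gene positions and exon bases shared between genes were computed from the exons in the deposited table, on either strand. Gene types and the GC content of the longest transcript come from GENCODE vM21, matched by symbol, and promoters and mature micro RNAs from RefSeq (GRCm38.p6).

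Of 24421 genes, 14824 passed filterByExpr by cage set (minimum count 10, minimum total 15). Values are CPM after TMM scaling, log2 differences are those of the edgeR fit, and their standard errors are the difference over the root of its F statistic. Log2 CPM used a prior count of 2. edgeR 4.0.16 quasi-likelihood fits held cage set and rank, and further their product, or the cage number centred within each set, with Benjamini-Hochberg adjustment over all genes and a threshold of 0.05. DESeq2 1.42.0, limma 3.58.1 (voom with duplicateCorrelation) and R 4.3.3 served the alternatives. Trends on exon length or GC content were removed per library by loess (span 0.3), and GC content was known for 14702 genes. Libraries held 12403943 to 15805170 counted reads, so that levels near 1 CPM rest on few counts. The planned exact permutation test of the library measures is not given, because they come from the counts that chose the split. A pair of libraries was compared by the mean chi-square of its counts. Fits were tested on simulated data.

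The labels give the cage of each mouse, and cage mates were killed together, so that the cage number pairs the mice. Deviations from the means of rank and cage set correlated across genes with a mean Pearson's r of -0.00826 in the 7 pairs of cage mates (-0.132 to 0.166), against 0.00463 in the 18 pairs of opposite rank from different cages of the same set. With deviations from rank means alone both kinds had a mean r of 0.175. The cage was therefore a block in alternatives only, because cage sets differ between cages.

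Genes were named by a written rule: the 12 with the smallest p in each direction, the 6 with the largest difference in each direction among genes called, up to 4 members of each of the 46 lists with the smallest p and the most abundant member by CPM per exon base, the 5 largest weights on the first component in each direction, from every other fit the 2 genes of lowest p per direction, and Wash1, Pcp2, Atp2a3, Ppp1r17, Cbln1 and Homer3. Which of them the text describes was chosen after their values were seen, as were Fos, Neat1 and Gapdh, the motifs, the chromosomal domains and the sequences. The closing section looks for far libraries and changes under other settings only in genes the text describes, so that such cases among the other genes of the rule are not listed. Some genes of the rule are withheld and not reported here. The lists and the members were chosen with earlier results from these data known. Alternatives (DESeq2, its size factors, other filters, no rank covariate, sums per cage, blocks, trends removed, each rank alone, each cage or library left out) are given at the end. Females were used only for levels, scaled jointly.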

Additional observations from a re-analysis of the deposited data

Results flagged for a closer look

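Within the earlier and within the later cages, a library was listed when its gap to the nearest other library of its set was large against the whole range of that set (Dixon's rule). This was looked at for 84 genes and 3 library measures in both sets, 174 groups in all, and 11 values from 7 libraries were far from the others. Chance gives about 1 in 20 groups, and no cause was tested. Dominant male 1 is listed for 3 genes and dominant male 6 for 3.

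In dominant male 1, Atp2a3 of Purkinje cells was at 5.82 CPM (others of the earlier cages 28.8 to 47.7), Actb at 1523 CPM (1369 to 1433) and Fibcd1 at 24.7 CPM (20.3 to 22.3). In dominant male 6 of the later cages, Cacna1e was at 232 CPM (others 304 to 345), Ep300 at 51.6 CPM (65.0 to 69.3) and Nrxn3 at 287 CPM (328 to 344). Mir124a-1hg was at 49.1 CPM in dominant male 5 (others 60.9 to 67.2). Prkar1b was at 529.9 CPM in submissive male 6 (others 544 to 552). In the earlier cages Atp5b was at 1129 CPM in submissive male 4 (others 1188 to 1233), Klf9 at 157 CPM in dominant male 2 (others 139 to 147) and Mt1 at 142 CPM in dominant male 4 (others 123 to 130.2).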

How the results depend on the processing

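The number of genes called between the cage sets was 4066. It lay between 2886 with the exon length trend removed and 4196 without rank as a covariate, in all settings with the full 14 libraries, and all changes of sign among the calls (168) came with the length trend. Each rank alone, with 4 against 3 libraries, gave 864 calls in dominant and 1887 in submissive males, which have fewer samples. Leaving out 1 cage at a time gave 2800 to 4288 calls, and 1 library at a time 3384 to 4727. With the cage as a random block (limma voom) there were 4083 calls, with counts summed per cage 3703. The cage set held 90.7% of the variance of the first component of rlog values and 91.6% to 95.4% with other numbers of genes or without dominant male 1, but 0.892% with variance-stabilized values and 0.169% with log2 CPM, where it was on the second component instead; the cause was not tested.

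The interaction of rank and cage set, rank within the earlier cages, rank within the later cages and the trend over cage number had 0 calls in each alternative run for them. For these 4 comparisons no fit used counts summed per cage, a mean count of at least 100 or single libraries left out. For the trend over cage number, no fit with the exon length trend removed was run. With the cage as a replicate block in paired fits, 0 genes were called for the interaction (255 at an unadjusted p under 0.05), 0 for rank in the earlier cages (271) and 0 in the later cages (227), and with the cage as a random block 0 for cage number (382). The block changed no call. Leaving out 1 cage at a time gave 0 to 0 calls in each of the 4. For the trend over cage number, edgeR then had 309 (2.06%) to 760 (5.16%) genes at an unadjusted p under 0.05.

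Without 1 cage at a time the later cages had 1027290 to 1544800 more counted reads, 19.6 to 74.6 more genes with at least 10 counts and -0.559 to -0.492 percentage points of reads in the 50 most abundant genes.

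For the 84 genes named, 2678 differences were computed under other settings. Of these, 2574 kept their call, or the lack of one, and moved by less than 1 SD, 20 moved by more, and 79 lost and 4 gained a call. Among the 72 called genes 1 difference changed sign, that of Gria2 at 0.015 with the exon length trend removed. Among the 12 genes not called, 9 differences of 6 genes changed sign, 4 of them in Car8 and Ppp1r17 without dominant male 1 or without its cage. No alternative run for the cage sets was left out. Genes near 1 CPM, such as Avpr1a and Mir494, are limited by depth.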

Other observations

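Of 128 antisense genes 12 were called lower and 0 higher in the later cages, and of 47 small nucleolar RNA genes 5 were called lower and 2 higher, against 15.7% of all genes called lower and 11.7% higher. On the common scaling with the females, Meg3, an imprinted non-coding RNA, had medians of 1639 CPM in the earlier cages, 1055 CPM in the later cages and 1111 CPM in females, and Actb, cytoplasmic actin, 1411, 1607 and 1793 CPM.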
